A study of Schizosaccharomyces pombe with 10 samples.

Results

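The RNAs described here are the abundant members of the later-annotated non-coding RNAs of the fission yeast Schizosaccharomyces pombe. They carry systematic IDs of the form SPNCRNA followed by a number of 200 or more, SPNCRNA.214 being left out, and had a mean of at least 20 CPM (the count divided by the library's total, times 1e6) over 10 libraries, with at least 21 counts summed over the 2 untreated libraries. Of the 6661 features counted, 122 met this rule, 1252 later-annotated RNAs did not, and 152 non-coding RNAs carry lower numbers. The choice rests on the measured level, so levels and the count of members are given as descriptions. All 122 were found by ID in the RefSeq annotation of assembly ASM294v3, a reference the authors do not name, and all 122 passed the filter on low counts.

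All cells were of strain PT286, for which the labels give no genotype beyond WT in the titles of the untreated libraries, grown at 30 °C in YES, a rich medium, with a first culture of 16 h. Cells were left untreated or were treated for 8 h with 1 of 4 agents. The agents were camptothecin, a poison of topoisomerase I, at 20 µM; hydroxyurea, which starves replication of deoxynucleotides, at 10 mM; MMS (methyl methanesulfonate), an alkylating agent, at 0.02 %; and phleomycin, which cuts DNA strands, at 5 µg/mL. The labels do not say whether untreated cells were kept for the same further time. Each of the 5 groups had 2 libraries of total RNA. Separate cultures are not stated for the 2, so the spread behind each p-value is that between these libraries and may be technical.

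Fission yeast transcribes much of its genome outside coding sequence. Many of these RNAs run antisense to coding genes or between them, and many are kept scarce by the RNA exosome, a nuclear complex that degrades RNA, and by Mmi1, a protein that binds repeated hexamer motifs and hands its targets to that machinery. A few act in cis: transcription of the long RNA runs through the promoter of the coding gene next to it and holds that gene down.

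Library totals ran from 37301356 to 48598533 counts. Replicates lay close together: over the members and groups, the coefficient of variation between the 2 libraries had a median of 2.91 % and a maximum of 16.6 %. Differences were tested with edgeR's quasi-likelihood test on TMM-scaled counts in 1 model of all 10 libraries, with Benjamini-Hochberg adjustment over the 5734 features tested, and log2 fold changes are on that scale. "Rose" and "fell" mean an adjusted p under 0.05. With library totals alone in place of TMM, the median log2 fold change of all features was 0.21 for hydroxyurea (0.02 with TMM), 0.10 for phleomycin (0.02), 0.09 for MMS (0.002) and -0.005 for camptothecin (0.004), so a CPM of a hydroxyurea library can be higher while the scaled value is not.

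Most of the members' reads came from the ribosomal DNA. SPNCRNA.1095 (520 bases) and SPNCRNA.1094 (232 bases) lie 29 bases apart on the minus strand of chromosome III, 788 and 527 bases upstream of the annotated 5′ end of an 18S rRNA gene. Each has 4 further copies in the assembly, at 99.6 % identity or more, each beside an rRNA gene. The whole sequence of the shorter RNA is shown because the pair holds most of the members' counts, looked up by locus tag in RefSeq ASM294v3 and written 5′ to 3′ with nothing marked.
SPNCRNA.1094: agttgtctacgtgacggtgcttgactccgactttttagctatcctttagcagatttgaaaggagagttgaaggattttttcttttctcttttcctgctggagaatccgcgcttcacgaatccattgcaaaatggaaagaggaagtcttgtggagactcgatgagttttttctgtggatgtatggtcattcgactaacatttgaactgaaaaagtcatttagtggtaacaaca

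SPNCRNA.1095 took 2.20 and 2.20 % of all counts in the untreated libraries, 2.54 and 2.54 % under camptothecin, 2.45 and 2.46 % under hydroxyurea, 3.83 and 3.81 % under MMS, and 2.35 and 2.35 % under phleomycin. SPNCRNA.1094 took 0.318 and 0.323 %, 0.364 and 0.366 %, 0.341 and 0.350 %, 0.523 and 0.536 %, and 0.352 and 0.354 % in the same order. The MMS libraries stood above all others for both RNAs, and the ratio of the longer to the shorter stayed between 6.63 and 7.32 in the 10 libraries. On the scaled values SPNCRNA.1095 rose with MMS by 0.71 (log2 fold change, SE 0.013, edgeR adjusted p = 7.47e-51) and SPNCRNA.1094 by 0.64 (SE 0.02, edgeR adjusted p = 1.05e-42), and with camptothecin they rose by 0.22 and 0.20. With hydroxyurea the values were -0.02 and -0.07 and with phleomycin 0.01 and 0.06, signs that the scaling turns. Per kilobase of RNA, SPNCRNA.1095 had a mean of 51404 CPM and SPNCRNA.1094 of 16487 CPM, where the median member had 24.9. How reads that match several rDNA copies were counted is not given in the sources used here, so both RNAs are uncertain as single loci. Both also lie on the same strand as the 18S gene, and reads of a longer transcript that spans them were not told apart.

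**Figure D1:**
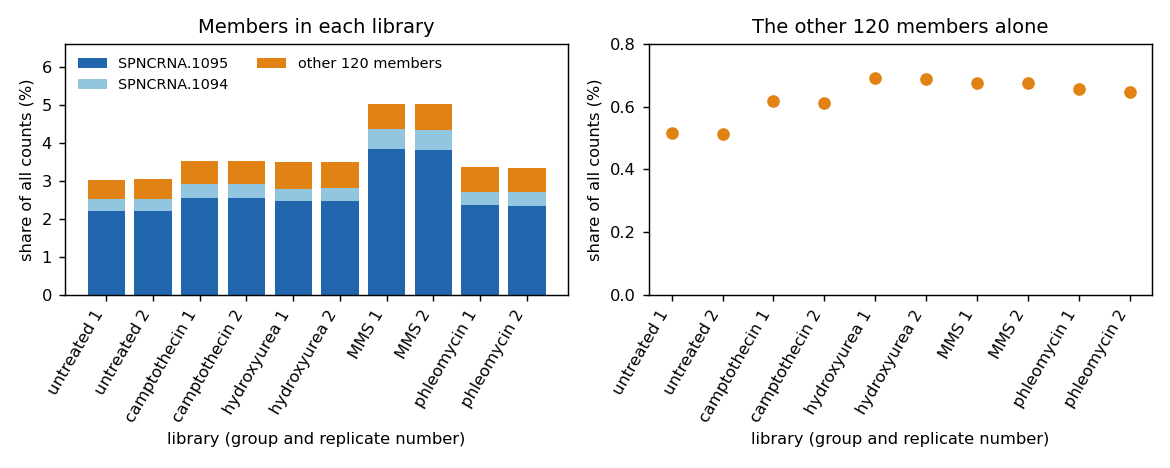
Share of all counts (%) in each library that came from SPNCRNA.1095, SPNCRNA.1094 and the other 120 members (stacked bars, left), and from the 120 alone (points, right). The MMS bars reach 5.03 and 5.02 %, all others lie between 3.03 and 3.52 %, and the 120 alone took the least in the 2 untreated libraries (0.516 and 0.513 %). The shares are not scaled and the rule averages over mostly treated libraries, so nothing is read from the low untreated share of the 120.

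SPNCRNA.1299 also lies in ribosomal DNA. It (743 bases, plus strand of chromosome III) lies 1566 bases from a 28S rRNA gene and has 2 further copies at 99.6 % identity. It had 16.7 and 15.6 CPM in untreated cells, 14.0 and 14.8 under camptothecin, 47.8 and 45.7 under hydroxyurea, 37.2 and 38.2 under MMS, and 73.2 and 79.7 under phleomycin. The phleomycin libraries were highest and the untreated and camptothecin libraries lowest, without overlap between these and the rest. The log2 fold change was 2.16 under phleomycin (SE 0.06, edgeR adjusted p = 5.39e-39), 1.35 under hydroxyurea and 1.14 under MMS, whereas the 2 RNAs upstream of the 18S gene stood highest with MMS. Its counts are uncertain in the same way, since its copies are nearly identical. SPNCRNA.1299 had under 20 CPM untreated and meets the rule through treated libraries, so its higher levels there are descriptions.

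The 122 members, those in ribosomal DNA included, were spread over the genome: 42 lie on chromosome I, 53 on II and 27 on III. They measured 232 to 5317 bases with a median of 1583, and their GC content had a median of 35.1 %. By position, 77 overlapped a coding gene mainly on the other strand, 9 mainly on the same strand, and 36 lay between coding genes. RefSeq describes 16 as possible alternative UTRs, and 2 hold snoRNA genes. Setting the rDNA pair aside, the 120 remaining members together took 0.516 and 0.513 % of the counts of the untreated libraries. This share was 0.617 and 0.611 % for camptothecin, 0.692 and 0.688 % for hydroxyurea, 0.676 and 0.674 % for MMS and 0.657 and 0.648 % for phleomycin. The rule averages over mostly treated libraries and these shares are not scaled, so the lower untreated share is a description. The median member had a mean of 32.5 CPM, 43 had 40 CPM or more, and 62 had at least 20 CPM in each library. The 3 members nearest the limit were SPNCRNA.1336 (20.4 CPM), SPNCRNA.680 (20.3) and SPNCRNA.606 (20.3), and the 3 features just outside were SPNCRNA.1343 (19.8), SPNCRNA.787 (19.7) and SPNCRNA.1712 (19.5).

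Many members that run antisense to a coding gene hold the whole of that gene, and there the counts of the coding gene were nearly absent. The 122 members include 37 that contain at least 1 complete coding gene on the other strand, 41 coding genes in all. Of these 41, 39 had a mean under 1 CPM over the 10 libraries, with a median of 0.005 CPM, whereas 315 of the 3991 coding genes that no non-coding feature overlaps (7.89 %) were under 1 CPM, with a median of 81.3. Cover of 50 % to under 100 % went with a median of 16.2 CPM (n = 20), 25 to 50 % with 108 (n = 10) and under 25 % with 103 (n = 30). The same was seen for the later-annotated RNAs below the rule, where 107 of 121 wholly covered coding genes were under 1 CPM, with a median of 0.02.

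The coding genes with next to no counts were of several kinds, and the examples here were chosen after their values were seen. Among those with a mean of 0 were tom6, a subunit of the mitochondrial protein import channel, inside SPNCRNA.840, qcr10, a subunit of respiratory complex III, inside SPNCRNA.1558, and fmc1 inside SPNCRNA.894, whose budding yeast counterpart helps to assemble the mitochondrial ATP synthase. The histidine synthesis gene his5 inside SPNCRNA.1500 had 0.04 CPM, pim1, which encodes the nucleotide exchange factor of Ran, inside SPNCRNA.1520 had 0.07, and lys9 of lysine synthesis inside SPNCRNA.1597 had 0.21. Genes of meiosis and mating were among them too, such as dmc1, a recombinase gene (0.00221 CPM), the meiotic kinase gene spo4 (0.00502) and mfm3, a mating pheromone gene (0.00904). The 2 that stood above 1 CPM were mbx2, a MADS-box transcription factor gene inside SPNCRNA.1626, at 6.45 CPM, and SPCC126.01c inside SPNCRNA.1263, at 4.91. Whether strand was used in counting is not given in the sources used here, so in these 37 loci the reads of the member and of the coding gene cannot be told apart, and values of the 37 are those of the locus. The same holds over the shared stretch of any antisense overlap named here.

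**Figure D2:**
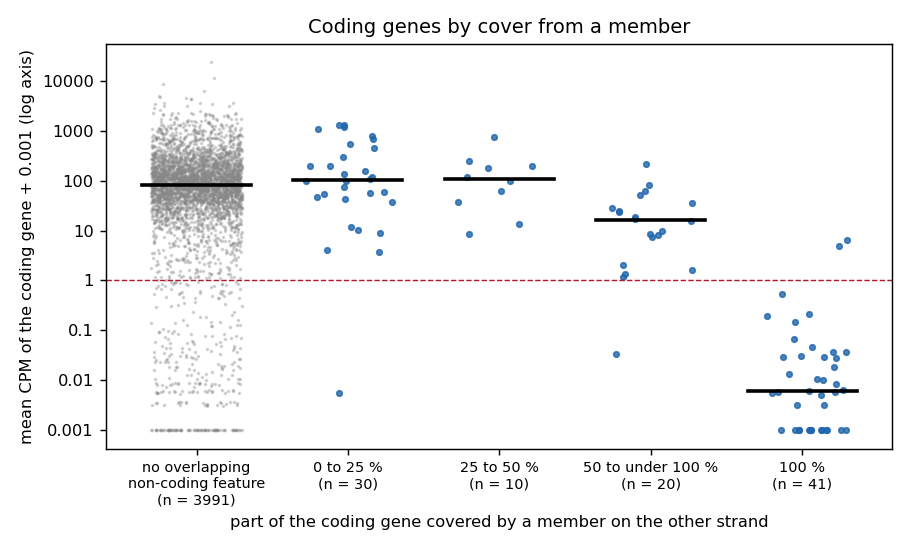
Mean CPM over the 10 libraries plus 0.001 (log axis) of coding genes, by the part of the gene that a member on the other strand covers. Each point is a coding gene, black bars are medians and the dashed line marks 1 CPM: 39 of 41 wholly covered genes lie under it.

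Against untreated cells more members rose than fell with each agent. With camptothecin 70 of 122 rose (57.4 %, beside 35.2 % of all tested features), 26 fell (21.3 %, beside 35.9 %) and 26 did not pass, where 71.2 % of all features passed. With hydroxyurea 86 rose (70.5 %, beside 40.3 %), 22 fell (beside 38.8 %) and 14 did not pass, where 79.1 % passed. With MMS 68 rose (55.7 %, beside 39.5 %), 42 fell (34.4 %, beside 40.9 %) and 12 did not pass, where 80.4 % passed. With phleomycin 64 rose (52.5 %, beside 42.2 %), 41 fell (33.6 %, beside 40.7 %) and 17 did not pass, where 82.9 % passed. The medians of the log2 fold changes of the members were 0.21, 0.41, 0.28 and 0.26, beside medians over all tested features of 0.004, 0.02, 0.002 and 0.02.

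The rule averages over libraries that are mostly of treated cells, and 42 of the 122 members had an untreated mean under 20 CPM and came in through the treated libraries, so nothing is read from these shares about the members. Among the 62 members with 20 CPM or more in each library, 28 rose and 17 fell with camptothecin, 33 and 20 under hydroxyurea, 29 and 29 under MMS, and 22 and 31 under phleomycin. Their medians were 0.07, 0.15, 0.02 and -0.14. Among the 43 with a mean of 40 CPM or more the counts were 25 and 10, 26 and 12, 25 and 17, and 23 and 17. With MMS and phleomycin the balance thus changed with how members were picked. With library totals alone the hydroxyurea split became 98 rising and 12 falling, while that of all features went from 2311 rising and 2225 falling to 3112 and 1485.

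Rises of 2-fold or more were found in 13 members with camptothecin (10.7 %, beside 6.38 % of all features), 22 under hydroxyurea (beside 12.4 %), 32 under MMS (26.2 %, beside 13.5 %) and 28 under phleomycin (23.0 %, beside 16.5 %). Falls of this size were found in 1 member with camptothecin (1.46 % of all features), 0 under hydroxyurea (1.15 %), 2 under MMS (4.05 %) and 5 under phleomycin (5.51 %). Of the 62 members with 20 CPM or more in each library, 2 rose by this size with camptothecin (3.23 %) and 4 under hydroxyurea (6.45 %). With MMS 9 did (14.5 %) and with phleomycin 7 (11.3 %). These shares lay below those of all features except for MMS. Requiring 20 CPM in the untreated libraries leaves out members that were low there, so nothing is read from these shares. With hydroxyurea all 22 falls by edgeR were smaller than that. Coding genes had median log2 fold changes of -0.03, -0.06, -0.07 and -0.07.

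**Figure D3:**
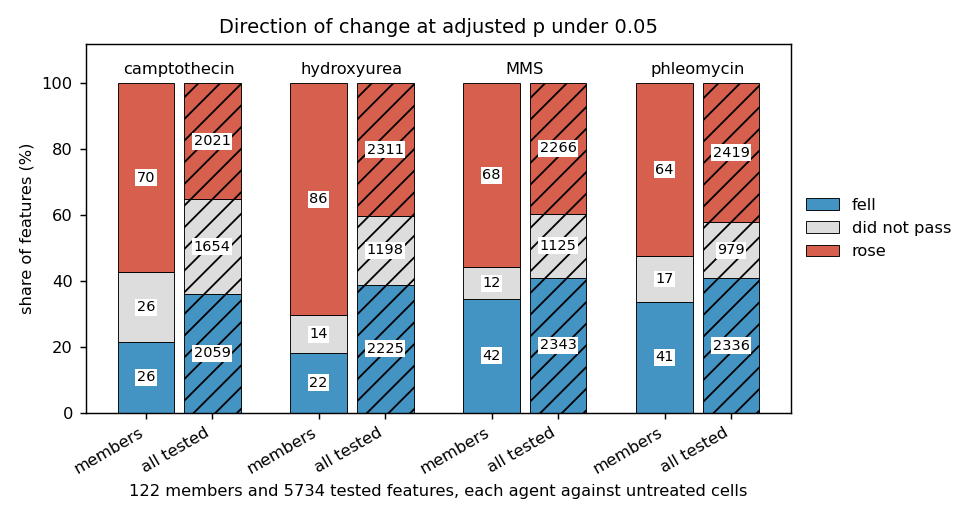
Share (%) of the 122 members (plain bars) and of the 5734 tested features (hatched bars) that rose, fell or did not pass at an adjusted p under 0.05, for each agent against untreated cells, with counts in the bars. The members rose in 70, 86, 68 and 64 cases with camptothecin, hydroxyurea, MMS and phleomycin.

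Each of the 5 groups had members that stood highest in it. All 122 differed among the 5 groups, beside 95.9 % of all features. A member was counted as highest in 1 group where it stood above each of the other 4, all 4 comparisons passing. That held for 23 members with hydroxyurea (6.64 % of all features), 20 under MMS (11.0 %), 18 under camptothecin (11.5 %), 17 under phleomycin (12.5 %) and 10 in untreated cells (19.0 %). These counts are also shaped by the rule, through the 42 members that came in through treated libraries, and nothing is read from them about the members. Among the 62 with 20 CPM or more in each library, a count added after the data were seen, they were 8, 12, 10, 7 and 9 in the same order. They depend on the scaling too: with library totals alone, also added after the data were seen, 36 of the 122 stood highest under hydroxyurea (13.5 % of all features), 21 under MMS (12.2 %), 13 under camptothecin (7.94 %), 17 under phleomycin (11.7 %) and 7 in untreated cells (14.4 %). Between the highest and lowest group mean on the scaled values the median ratio was 2.04, from 1.11 to 17.5, with 66 members at 2-fold or more and 11 at 5-fold or more.

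**Figure D4:**
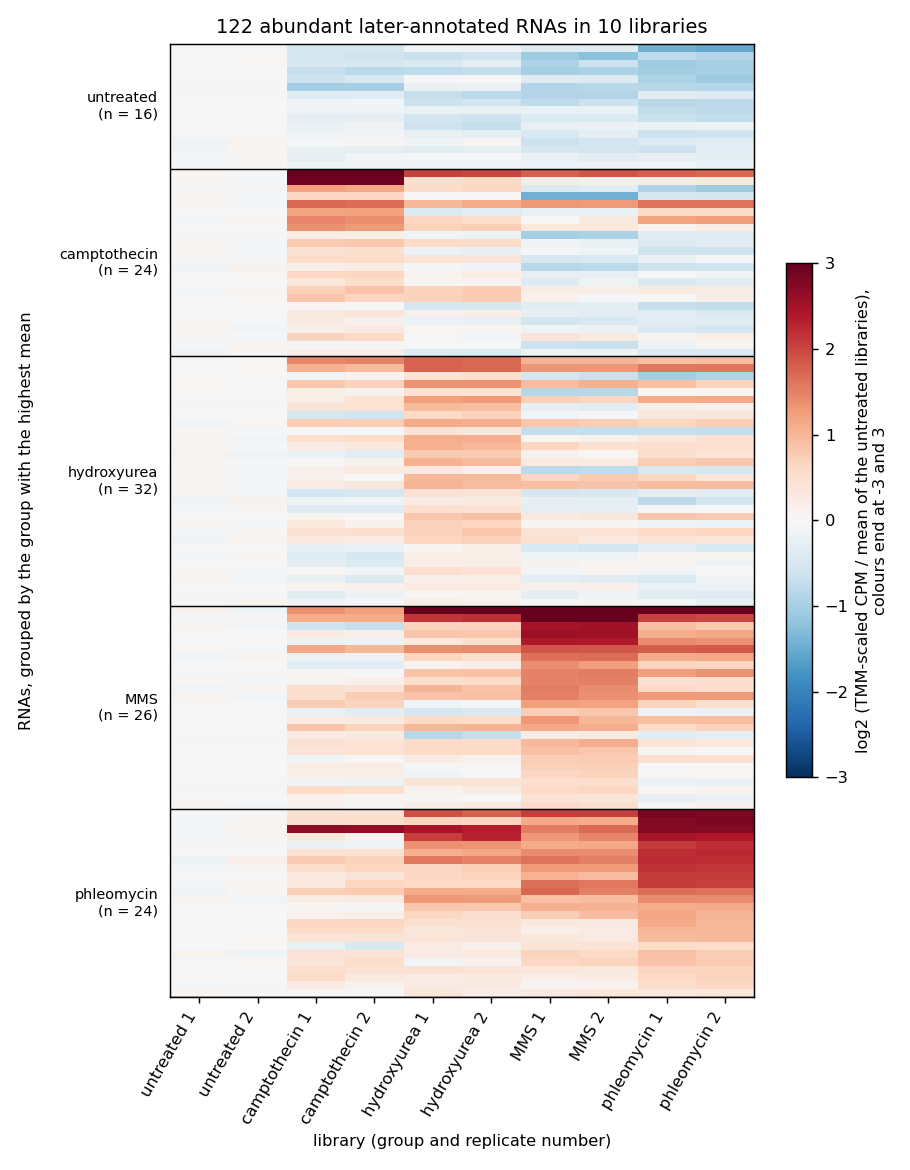
Log2 ratio of the TMM-scaled CPM of each of the 122 members in each of the 10 libraries to the mean of the untreated libraries (red higher, blue lower, colours end at -3 and 3). Members are grouped by the group with the highest scaled level: 16 untreated, 24 camptothecin, 32 hydroxyurea, 26 MMS and 24 phleomycin (on unscaled CPM 11, 16, 45, 26 and 24), and the 2 libraries of a group show like colours.

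A pair of neighbouring RNAs upstream of wee1 rose under each agent. SPNCRNA.472 and SPNCRNA.1153 lie 346 bases apart on the plus strand of chromosome III, between bfr1, a gene for an efflux pump of the ABC family, and wee1, whose kinase holds back entry into mitosis, and no other feature of the table overlaps either. SPNCRNA.1153 had 64.7 and 67.2 CPM in untreated cells, 141 and 141 under camptothecin, 333 and 344 under hydroxyurea, 707 and 727 under MMS, and 290 and 281 under phleomycin. SPNCRNA.472 had 4.36 and 3.61, 10.3 and 9.22, 36.4 and 36.6, 55.6 and 54.0, and 45.6 and 48.3 CPM in the same order. For both, all treated libraries lay above the untreated ones and the MMS libraries were highest. SPNCRNA.472 had under 20 CPM untreated and meets the rule through the hydroxyurea, MMS and phleomycin libraries, so its rises are descriptions.

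Their log2 fold changes with MMS were 3.35 (SE 0.03, edgeR adjusted p = 5.5e-70) for SPNCRNA.1153 and 3.70 (SE 0.09, adjusted p = 4.21e-44) for SPNCRNA.472, which also rose by 3.48 under phleomycin, 3.02 under hydroxyurea and 1.31 under camptothecin. The coding gene wee1, 2880 bases downstream of SPNCRNA.1153, had 45.8 ± 0.78 CPM (SD, n = 2) in untreated cells and fell with hydroxyurea (30.7 ± 2.0, log2 fold change -0.76), MMS (37.4 ± 0.81, -0.38) and phleomycin (26.6 ± 1.7, -0.87). Its value with camptothecin was 47.3 ± 0.82 CPM (log2 fold change 0.06, edgeR adjusted p = 0.402). Gene bfr1 rose with MMS by 0.70 and fell with phleomycin by 0.38 on the log2 scale. The first 80 bases of both RNAs are shown because they were among the members that rose most, again from RefSeq ASM294v3 with nothing marked.
SPNCRNA.472: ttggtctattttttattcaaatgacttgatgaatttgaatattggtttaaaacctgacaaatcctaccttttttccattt
SPNCRNA.1153: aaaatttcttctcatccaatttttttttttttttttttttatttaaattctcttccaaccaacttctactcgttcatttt

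Camptothecin set 2 members apart. SPNCRNA.1378, on chromosome II, had 10.6 and 9.67 CPM in untreated cells, 177 and 175 under camptothecin, 48.0 and 46.0 under hydroxyurea, 37.6 and 39.7 under MMS, and 37.1 and 35.2 under phleomycin. Its level with camptothecin was 17.5-fold that of untreated cells (log2 fold change 4.13, SE 0.06, edgeR adjusted p = 6.14e-57), and it rose with each other agent too, by 1.75 to 2.03. SPNCRNA.1378 covers 79.7 % of cbp6 on the other strand, a gene that fell with camptothecin (25.6 ± 1.5 to 13.4 ± 0.61 CPM, log2 fold change -0.92). The RNA overlaps rba50 on its own strand, where coding genes cover 2.12 % of it, and reads of that stretch cannot be told apart. RefSeq describes SPNCRNA.1378 as a possible alternative UTR. SPNCRNA.894, which holds the whole of fmc1, had 19.7 and 18.7 CPM untreated and 145 and 143 under camptothecin, a log2 fold change of 2.92 (SE 0.06, adjusted p = 7.66e-49), and 22.6 to 32.8 CPM in the libraries of the other agents. The camptothecin libraries of both RNAs lay far above all others. Both had under 20 CPM untreated, and the camptothecin libraries help both to meet the rule, so their rises are descriptions.

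The other members that rose most with camptothecin were SPNCRNA.606, SPNCRNA.1265, SPNCRNA.322 and SPNCRNA.806, by 2.67, 1.70, 1.48 and 1.43 on the log2 scale. SPNCRNA.606 runs antisense over 62.5 % of isp3, a gene for a spore wall protein, and went from 4.11 and 4.43 CPM untreated to 27.2 and 26.8 under camptothecin, 27.0 and 24.6 under hydroxyurea, 13.2 and 14.6 under MMS and 30.7 and 30.5 under phleomycin. Its partner isp3 rose with it, by 1.36, 1.83, 1.12 and 1.57. SPNCRNA.322 lies between pfl3, which encodes a cell-surface flocculin, and apl2, and rose with hydroxyurea most (1.75, from a mean of 16.9 ± 0.11 to 64.4 ± 2.4 CPM). SPNCRNA.1265 covers 18.7 % of mrpl17, a gene for a mitochondrial ribosomal protein, on the other strand. SPNCRNA.806 holds the whole of SPAC18G6.13 and lies 317 bases from rps7, a gene for a ribosomal protein. The untreated libraries did not overlap those of camptothecin in these 4, which the choice of named members required. All 4 had under 20 CPM untreated. Their place under the rule rests in part on the camptothecin libraries, so their rises are descriptions.

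With hydroxyurea the 6 members that rose most were SPNCRNA.472 (3.02), SPNCRNA.606 (2.41), SPNCRNA.667 (2.19), SPNCRNA.1153 (2.18), SPNCRNA.1378 (2.03) and SPNCRNA.751 (1.86), and each of these had a larger log2 fold change under another agent. SPNCRNA.680, a member at the limit of the rule that overlaps SPAC4G8.04 on the same strand, had 14.1 and 13.3 CPM untreated, 13.9 and 14.7 under camptothecin, 32.3 and 30.1 under hydroxyurea, 17.7 and 17.3 under MMS and 24.3 and 25.4 under phleomycin. Its hydroxyurea libraries lay above all others. SPNCRNA.472, SPNCRNA.606, SPNCRNA.667, SPNCRNA.1378, SPNCRNA.751 and SPNCRNA.680 had under 20 CPM untreated. Their place under the rule rests in part on treated libraries, those of hydroxyurea among them, so their higher levels there are descriptions.

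With MMS, SPNCRNA.472 and SPNCRNA.1153 rose most, followed by SPNCRNA.1279, SPNCRNA.1696 and SPNCRNA.1213. SPNCRNA.1696, named nam3, had 23.1 and 20.7 CPM untreated, 14.5 and 13.4 under camptothecin, 39.5 and 39.9 under hydroxyurea, 130 and 133 under MMS, and 43.6 and 40.2 under phleomycin. It rose with MMS by 2.49 (SE 0.06, edgeR adjusted p = 1.83e-45) and fell with camptothecin by 0.64. SPNCRNA.1213 had 30.3 and 30.9, 27.6 and 27.3, 43.8 and 48.9, 173 and 173, and 86.9 and 83.2 CPM in the same order of groups, a log2 fold change of 2.41 under MMS and of 1.39 under phleomycin. Its upstream neighbour osr1, 1148 bases away on the other strand, went from 27.2 ± 0.41 CPM untreated to 208 ± 2.3 under hydroxyurea and 455 ± 1.2 under phleomycin, and rose with MMS by 5.20 on the log2 scale. SPNCRNA.1213 holds SPCC663.08c whole, and SPNCRNA.1279, which holds opt3, rose with MMS by 2.56 from 11.6 and 11.5 to 73.8 and 71.8 CPM. The MMS libraries of these 3 RNAs did not overlap any others. SPNCRNA.472 and SPNCRNA.1279 had under 20 CPM untreated. Their place under the rule rests in part on the MMS libraries, so their rises are descriptions.

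With phleomycin, beside SPNCRNA.472 (3.48) and SPNCRNA.606 (2.76), 4 further RNAs led. SPNCRNA.472, SPNCRNA.606, SPNCRNA.751 and SPNCRNA.667 had under 20 CPM untreated. Their place under the rule rests in part on the phleomycin libraries, so their rises are descriptions. SPNCRNA.942 (287 bases), 283 bases from ppc89 and between coding genes, had 19.8 and 20.5 CPM untreated, 27.9 and 28.5 under camptothecin, 36.6 and 35.5 under hydroxyurea, 46.9 and 46.5 under MMS, and 144 and 151 under phleomycin. Its log2 fold change with phleomycin was 2.78 (SE 0.05, edgeR adjusted p = 9.85e-50), and the phleomycin libraries stood above all others. SPNCRNA.751 (584 bases) begins 31 bases from vma1, a gene for a subunit of the vacuolar proton pump, on the other strand, and went from 5.67 and 5.98 CPM to 44.9 and 42.3 under phleomycin (2.82), 26.0 and 25.8 under MMS (2.06) and 25.3 and 22.8 under hydroxyurea (1.86). SPNCRNA.667 (426 bases) lies 137 bases from spo20, which encodes a phospholipid transfer protein, on the other strand, and went from 6.91 and 7.26 CPM to 41.9 and 39.7 under phleomycin (2.44), 33.8 and 39.7 under hydroxyurea (2.19) and 18.5 and 20.8 under MMS (1.38). With camptothecin it had 8.79 and 7.54 CPM (log2 fold change 0.22, adjusted p = 0.0677). SPNCRNA.1292, 33 bases from tmp1 and holding SPCC70.08c, rose by 2.25 under phleomycin, 1.41 under MMS and 1.12 under hydroxyurea.

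**Figure D5:**
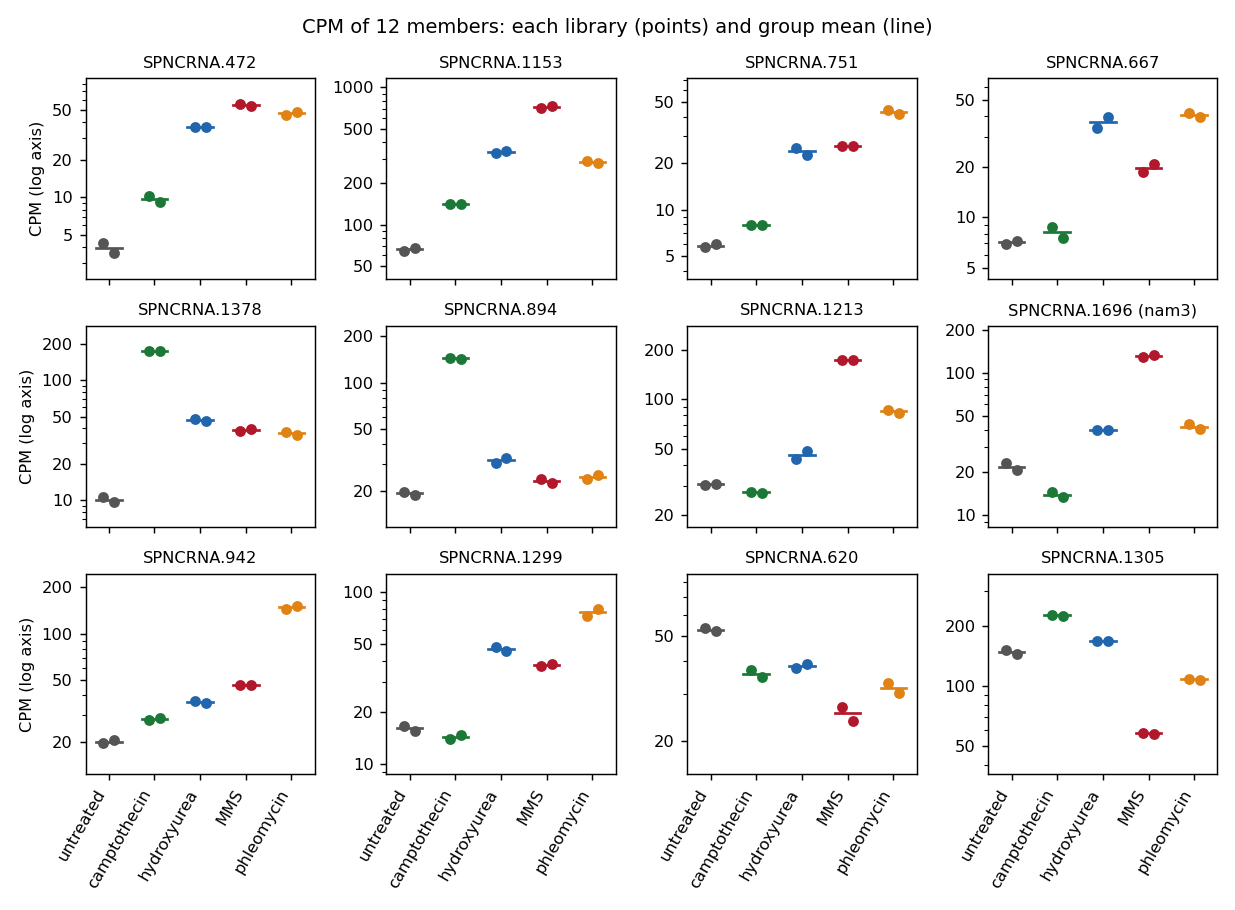
CPM (log axis) of 12 members in each library (points, 2 per group) with the group mean (line). SPNCRNA.1378 and SPNCRNA.894 stand highest with camptothecin, SPNCRNA.1213 and SPNCRNA.1696 under MMS, and SPNCRNA.942 and SPNCRNA.1299 under phleomycin, and SPNCRNA.620 is lower with each agent than in untreated cells.

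The largest falls were smaller than the largest rises. SPNCRNA.1560, which holds rsv1 and rbd3, fell with each agent, from 50.4 and 48.9 CPM to 30.7 and 28.3 under camptothecin, 33.6 and 33.9 under hydroxyurea, 26.4 and 27.5 under MMS and 25.5 and 26.1 under phleomycin, log2 fold changes of -0.74, -0.74, -0.97 and -1.03. SPNCRNA.620, antisense over 37.2 % of aps1, which encodes a hydrolase of diadenosine polyphosphates, fell by 0.54, 0.64, 1.15 and 0.82 from 53.5 and 52.1 CPM. Gene aps1 fell alongside, by 0.53, 0.69, 1.08 and 0.90. The treated libraries of both RNAs lay below the untreated ones throughout.

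SPNCRNA.1305, 174 bases from aes1, moved both ways. It had 151 and 144 CPM untreated, 226 and 224 under camptothecin, 168 and 167 under hydroxyurea, 57.9 and 57.6 under MMS, and 109 and 107 under phleomycin, with a log2 fold change of -1.44 for MMS (SE 0.03, edgeR adjusted p = 5.98e-44), the largest fall of a member under MMS, and a rise of 0.62 for camptothecin. No other feature overlaps it. Gene aes1, on the other strand, rose with each agent, by 0.45, 1.48, 1.90 and 2.15.

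Several of the other members that fell hold coding genes. SPNCRNA.1626 (mbx2) fell by 1.49 under phleomycin, from 120 and 127 to 47.9 and 45.1 CPM, SPNCRNA.1558 (qcr10) by 1.03 and SPNCRNA.1644, which holds spo4, a gene for a meiotic kinase, by 1.02. SPNCRNA.608, which holds SPAC11D3.02c and SPAC11D3.03c, fell by 1.02 under camptothecin, from 221 and 208 to 105 and 106 CPM, and by 0.86 under MMS. SPNCRNA.1223, next to the invertase gene inv1 and holding SPCC191.10, fell by 0.97 under MMS, while inv1 itself fell by 1.21, 1.76, 2.14 and 2.35 under the 4 agents. SPNCRNA.953 rose by 1.20 under camptothecin and had 14.6 and 13.2 CPM under phleomycin against 25.8 and 26.7 untreated (log2 fold change -1.002), and SPNCRNA.1278 (holding SPCC1840.13) fell by 0.96 under phleomycin and by 0.60 under MMS. The smaller falls among those named were of SPNCRNA.1517 (0.76 under hydroxyurea, 0.88 under MMS), SPNCRNA.833 (0.60 under hydroxyurea), SPNCRNA.240 (0.78 under hydroxyurea) and SPNCRNA.1164 (0.54 under camptothecin).

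After the rDNA pair, the most abundant members by mean CPM were SPNCRNA.1115, SPNCRNA.1153, SPNCRNA.1597, SPNCRNA.1096, SPNCRNA.608, SPNCRNA.1305, SPNCRNA.844, SPNCRNA.1483, SPNCRNA.622 and SPNCRNA.1698. SPNCRNA.1115 overlaps SPCC1235.01 on the same strand and had 612 and 594 CPM untreated, falling by 0.28, 0.59, 0.41 and 0.71 under camptothecin, hydroxyurea, MMS and phleomycin. SPCC1235.01, at 2050 ± 48 CPM untreated, fell by 0.19, 0.57, 0.26 and 0.70. Reads of the stretch that both share on this strand cannot be told apart. Other features cover 78.2 % of SPNCRNA.1115, and coding genes on its own strand cover 9.9 %. SPNCRNA.1597, the locus of lys9, had 213 ± 0.76 CPM untreated (SD, n = 2), 485 ± 5.2 under camptothecin, 188 ± 5.3 under hydroxyurea, 195 ± 1.9 under MMS and 333 ± 0.078 under phleomycin, a log2 fold change of 1.20 under camptothecin.

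SPNCRNA.1096 covers 62.2 % of SPCC1884.01 on the other strand and fell with MMS by 0.85, from 247 and 243 to 144 and 145 CPM, while SPCC1884.01 fell by 0.98. SPNCRNA.844, 130 bases from cdr1, which encodes a kinase that inhibits Wee1, rose with each agent by 0.57, 0.37, 0.20 and 0.98, while cdr1 fell by 0.63, 0.21, 0.45 and 0.73. SPNCRNA.622 covers 82.0 % of sty1, the gene of the stress-activated MAP kinase, on the other strand. SPNCRNA.622 had 92.6 and 91.9 CPM untreated, 131 and 125 under MMS, where it rose by 0.38, and 83.4 and 86.2 under phleomycin, where it fell by 0.20, a call lost with quantile normalization. With camptothecin it rose by 0.10, a call lost without the second untreated or the first camptothecin library, and with hydroxyurea its log2 fold change was 0.02 (edgeR adjusted p = 0.582). Gene sty1 fell with each agent, by 0.22, 0.74, 0.41 and 0.91. Of 78 antisense pairs, 30 were left out because the coding gene did not pass the filter on low counts. Over the 48 with both partners tested, the correlation of log2 fold changes was -0.04, 0.06, 0.10 and -0.03. These are Pearson values for the 4 agents in the same order, with libraries shared by both partners. They do not cover the pairs left out.

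3 members are annotated or known as repressors of a neighbouring gene in cis. RNA and target both rose in some comparisons and moved in opposite directions in others. The RNA nc-tgp1 (SPNCRNA.1698) is transcribed across the promoter of tgp1, a gene for a glycerophosphodiester transporter, and represses it. It had 99.2 and 108 CPM untreated, 118 and 117 under camptothecin, 89.5 and 89.0 under hydroxyurea, 100.1 ± 0.034 (SD, n = 2) with MMS and 81.4 and 82.2 under phleomycin, falls of 0.40 under hydroxyurea and 0.43 under phleomycin and a rise of 0.19 under camptothecin. Gene tgp1 had 5.76 ± 0.27 CPM untreated and 9.14 ± 0.52, 9.18 ± 0.53, 22.8 ± 0.17 and 14.1 ± 0.26 with the agents, rising in each case (0.68, 0.49, 1.89 and 1.20). Under camptothecin both rose, and under hydroxyurea and phleomycin nc-tgp1 fell while tgp1 rose. As nc-tgp1 overlaps tgp1 on the same strand, reads of the shared stretch cannot be told apart.

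The RNA prt2 (SPNCRNA.9001) represses pho84, a phosphate transporter gene, and pho1, the secreted acid phosphatase gene, lies 1535 bases further on. It had 42.9 and 40.9 CPM untreated, 70.6 and 65.9 under camptothecin, 43.6 and 45.2 under hydroxyurea, 104 and 102 under MMS, and 71.4 and 61.6 under phleomycin. It rose with MMS by 1.22 (SE 0.05, edgeR adjusted p = 4.65e-31), with camptothecin by 0.72 and with phleomycin by 0.58, and pho84 rose with all 4 agents, by 0.19, 1.87, 0.79 and 0.85, most with hydroxyurea, where prt2 stood at -0.10 (adjusted p = 0.0937). Gene pho1 fell by 0.46 under camptothecin and rose by 1.32, 1.04 and 2.34 with the others. Because prt2 overlaps pho84 on the same strand, reads of the shared stretch cannot be told apart.

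The RNA nam1 (SPNCRNA.1459) represses byr2, the gene of a MAP kinase kinase kinase of the mating pathway that lies 210 bases downstream, and it is a known target of Mmi1. It had 26.3 and 26.9 CPM untreated, 23.3 and 20.7 under camptothecin, 21.5 and 22.2 under hydroxyurea, 47.6 and 49.4 under MMS and 25.1 ± 0.21 (SD, n = 2) with phleomycin. Only the MMS libraries lay above the untreated ones, with a log2 fold change of 0.78 (SE 0.07, edgeR adjusted p = 5.11e-16), and it fell by 0.47 under hydroxyurea. Gene byr2 had 53.5 ± 1.7 CPM untreated, 50.4 ± 0.98 under camptothecin, 83.4 ± 4.8 under hydroxyurea, 77.5 ± 4.0 under MMS and 94.8 ± 0.0075 under phleomycin, so under MMS both rose. Under hydroxyurea nam1 fell while the CPM of byr2 was higher than untreated.

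Further members have a described product. The snoRNA host SPNCRNA.1483, which holds snoZ30, had 124 and 124 CPM untreated and fell by 0.67 under hydroxyurea, to 91.4 and 85.9 CPM. The snoZ primary transcript SPNCRNA.659, which holds 5 snoRNA genes, stood at 25.5 and 24.3 CPM untreated and 19.7 to 29.1 in the treated libraries. SPNCRNA.1624, described in the annotation as specific to heat shock, had 29.6 ± 2.2 CPM (SD, n = 2) in these cells at 30 °C without any agent, and fell by 0.49 under phleomycin to 22.4 ± 1.2.

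The hexamers that Mmi1 binds, UNAAAC in RNA and TNAAAC in the letters of the genome, were counted over each RNA. On the strand of the RNA the members held 2.05 per kilobase, the later-annotated RNAs below the rule 1.98 and coding genes 1.76. The RNA nam1 held 9, nc-tgp1 6, prt2 11 and nam3 4, while SPNCRNA.1094 and SPNCRNA.1095 held 0. The 150-base stretch with the most hexamers is shown for these 4 named RNAs, since nam1 is a known Mmi1 target, with the hexamers in capitals. The genes of nam1, nc-tgp1 and nam3 lie on the minus strand of chromosome II and that of prt2 on its plus strand, and all sequences are from RefSeq ASM294v3, 5′ to 3′ on the strand of the RNA.
nam1: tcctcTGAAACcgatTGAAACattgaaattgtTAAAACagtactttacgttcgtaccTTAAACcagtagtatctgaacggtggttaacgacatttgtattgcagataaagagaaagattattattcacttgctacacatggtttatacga
nc-tgp1: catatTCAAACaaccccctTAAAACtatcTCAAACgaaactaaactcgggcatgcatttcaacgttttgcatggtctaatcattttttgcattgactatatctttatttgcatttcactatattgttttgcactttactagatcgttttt
prt2: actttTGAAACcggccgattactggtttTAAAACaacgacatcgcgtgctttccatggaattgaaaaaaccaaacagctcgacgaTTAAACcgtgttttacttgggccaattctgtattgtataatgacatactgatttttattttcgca
nam3: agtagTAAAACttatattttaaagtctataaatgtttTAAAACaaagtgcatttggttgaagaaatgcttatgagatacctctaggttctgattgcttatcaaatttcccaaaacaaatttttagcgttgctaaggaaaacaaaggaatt

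In windows from 250 bases before to 50 after each annotated start, searched on both strands, TGACGT, the core of the site of the Atf1 stress factor, was present in 16 of the 122 members (13.1 %) and in 6.30 % of all 6551 features with a position. The other motifs searched were ACGCGT, the core of the MluI cell-cycle box (0.820 % of members, 2.98 % of all), CAGTCACA of the HomolD box (3.28 and 2.52 %), TTCTTTGTT, the site of the Ste11 mating factor (3.28 and 2.06 %), and TATAAA (38.5 and 47.0 %). A match is a run of letters, not evidence of binding. The 16 with TGACGT had median log2 fold changes of -0.01, 0.09, -0.22 and -0.19 under camptothecin, hydroxyurea, MMS and phleomycin, and the 106 without it 0.23, 0.45, 0.29 and 0.33. The stretches of 40 bases around it are shown for the 6 of the 16 whose own changes are given above, with TGACGT or its complement ACGTCA in capitals; prt2 has both, overlapping, 63 bases before its start. SPNCRNA.620 and SPNCRNA.667 lie on the minus strand of chromosome I, SPNCRNA.1644 and SPNCRNA.1626 on that of II and SPNCRNA.1223 on that of III.
prt2: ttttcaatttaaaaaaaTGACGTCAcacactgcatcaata
SPNCRNA.1644: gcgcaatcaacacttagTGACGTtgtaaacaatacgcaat
SPNCRNA.620: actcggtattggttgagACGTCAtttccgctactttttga
SPNCRNA.667: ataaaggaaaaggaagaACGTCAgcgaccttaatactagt
SPNCRNA.1223: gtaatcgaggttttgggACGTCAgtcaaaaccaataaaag
SPNCRNA.1626: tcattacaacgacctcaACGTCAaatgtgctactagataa

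Of the 15 genes of the exosome and its cofactors, 11 fell and 3 rose with camptothecin, 9 and 2 under hydroxyurea, 13 and 1 under MMS, and 13 and 2 under phleomycin, with median log2 fold changes of -0.18, -0.22, -0.45 and -0.51. Of 13 tested genes of Mmi1 and its surveillance complex MTREC, 8, 8, 5 and 6 fell and 3, 2, 6 and 2 rose. Cytoplasmic decay genes (16 tested) fell in 9, 11, 7 and 11 cases and rose in 3, 4, 6 and 4, and termination and 3′ end genes (16 tested) fell in 10, 8, 9 and 9 and rose in 3, 1, 5 and 3. Of all tested features 35.9, 38.8, 40.9 and 40.7 % fell in these comparisons. Their part in the members' levels was not tested.

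Markers of conjugation and sporulation, the other cell state such cultures can hold, were read beside the members. Of the 20 markers 16 were tested, and 10 rose and 2 fell with camptothecin (35.2 and 35.9 % of all features), 12 and 3 under hydroxyurea (40.3 and 38.8 %), 9 and 4 under MMS (39.5 and 40.9 %) and 11 and 4 under phleomycin (42.2 and 40.7 %). Their median log2 fold changes were 0.78, 0.60, 0.24 and 0.51. Their summed level was 1085 and 1096 CPM in untreated libraries, 1279 and 1268 under camptothecin, 1098 and 1092 under hydroxyurea, 826 and 814 under MMS, and 1038 and 1008 under phleomycin, with 3 or 4 markers at 0 in each library. Most of this sum came from spo15, a gene of the spindle pole body in sporulation, and a sum without it was added after the data were seen. The other 19 markers summed to 350.2 and 363 CPM untreated, 603 and 602 under camptothecin, 461 and 465 under hydroxyurea, 364 and 354 under MMS, and 439 and 432 under phleomycin. The fall of the full sum under MMS and phleomycin was thus that of spo15, and the sum of the others was higher than untreated under each agent except MMS. The list includes spo4, mfm3 and isp3, which members cover wholly or in part. Its part in the members' changes was not tested.

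The agents were also compared with each other. Against camptothecin, 66 members were higher and 36 lower with hydroxyurea (36.5 and 36.2 % of all features, 72.6 % passing), 56 and 47 under MMS (38.2 and 38.7 %, 76.9 % passing), and 51 and 51 under phleomycin (39.4 and 40.7 %, 80.0 % passing). At 2-fold or more the counts were 9 and 4 under hydroxyurea (7.34 and 2.28 % of all features), 16 and 11 under MMS (8.60 and 4.85 %) and 16 and 7 under phleomycin (11.1 and 3.94 %). The rule shapes these counts too, so nothing is read from them about the members. Among the 62 members with 20 CPM or more in each library, 27 were higher and 24 lower with hydroxyurea, 25 and 26 under MMS, and 20 and 32 under phleomycin. Among the 43 with a mean of 40 CPM or more they were 20 and 20, 21 and 19, and 16 and 22. In all 3, SPNCRNA.894 and SPNCRNA.1378 were the 2 lowest, by -2.38 and -2.10 for hydroxyurea, -2.73 and -2.29 for MMS, and -2.65 and -2.38 for phleomycin. At the other end stood SPNCRNA.667 and SPNCRNA.472 for hydroxyurea (1.97 and 1.71), SPNCRNA.1696 and SPNCRNA.1213 for MMS (3.13 and 2.56), and SPNCRNA.751 and SPNCRNA.1299 for phleomycin (2.37 and 2.32).

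Against hydroxyurea, 44 members were higher and 65 lower with MMS (34.2 and 39.4 % of all features, 73.6 % passing), and 44 and 64 under phleomycin (33.3 and 37.8 %, 71.2 % passing). At 2-fold or more the counts were 10 and 5 under MMS (3.66 and 4.27 %) and 5 and 4 under phleomycin (4.17 and 1.99 %). These counts are also shaped by the rule. Among the 62 members with 20 CPM or more in each library, 26 were higher and 27 lower with MMS, and 21 and 34 under phleomycin. Among the 43 with a mean of 40 CPM or more they were 21 and 18 under MMS, and 17 and 22 under phleomycin. The balance with MMS thus changed with how members were picked. With MMS, SPNCRNA.1213 and SPNCRNA.1696 were highest (1.99 and 1.82), and SPNCRNA.1305 and SPNCRNA.1096 lowest (-1.44 and -1.26). With phleomycin, SPNCRNA.942 and SPNCRNA.1511 were highest (2.13 and 1.48), and SPNCRNA.953 and SPNCRNA.1278 lowest (-1.59 and -1.41). SPNCRNA.1511, 165 bases from pvg3, which encodes a galactosyltransferase, had 13.6 and 14.0 CPM untreated and 66.2 and 63.1 under phleomycin. Its place under the rule rests in part on the phleomycin libraries. Phleomycin against MMS gave 45 higher and 45 lower (36.2 and 35.8 %, 72.0 % passing), 6 and 6 of them by 2-fold or more (4.71 and 2.15 %), with SPNCRNA.942 (1.66) and SPNCRNA.606 (1.14) at one end and SPNCRNA.1696 (-1.64) and SPNCRNA.1279 (-1.44) at the other. Among the 62 members the comparison of phleomycin with MMS gave 19 higher and 29 lower. Members named here for a pair were chosen among those past the threshold with libraries that did not overlap. The largest edgeR adjusted p among them was 1e-18, for SPNCRNA.606.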

How the data were processed

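RNA-seq of total RNA from 10 libraries in 5 groups of 2 was deposited by the authors as 1 table of raw counts per feature, whole numbers without scaling. HISAT2 and StringTie were used per the submitters' processing notes, and the sources used here do not give their roles and versions, the counter, build, annotation or strand setting. The 6661 IDs were matched to RefSeq ASM294v3, used for names, neighbours, sequences and overlaps: 6540 by locus tag, 11 by synonym, 110 not. Near-identical copies were found with blastn 2.17.0+ (identity of 95 % or more over 50 % or more of the RNA).

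The test was that of edgeR 4.0.16 under R 4.3.3 (quasi-likelihood, TMM factors 0.944 to 1.09, filterByExpr, 5734 features tested, 5 residual degrees of freedom, common dispersion 0.000488, a biological coefficient of variation of 2.21 %), two-sided, Benjamini-Hochberg threshold 0.05. The scripts were tested on simulated data. CPM is the count over the column sum. Library pairs differed by more than sampling noise (chi-square per feature 3.34 to 3.71), so none was merged. Replicate numbers did not pair libraries: correlations of deviations ran from -0.053 to 0.037. Alternatives were DESeq2 1.42.0, limma 3.58.1 after quantile normalization, other scalings, no filter, a replicate block, 2-group fits and leaving out each library.

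Members named are the 12 most abundant, the 6 at each end against untreated cells and the 2 at each end between agents among those past the threshold with libraries apart, those at the limit of the rule, and those with a symbol or described function. Others named (in the coding-gene paragraphs) were chosen after their values were seen. The members, gene lists and tests were chosen with earlier results of these data known.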

Additional observations from a re-analysis of the deposited data

How the results depend on the processing

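The counts of rising and falling members against untreated cells and between agents stayed within 1.5 times under DESeq2's test and its size factors, no filter on low counts, the replicate block, 2-group fits, quantile normalization and each left-out library, and so did the 122 members that differ among groups. Libraries of the same number did not deviate together (correlations from -0.053 to 0.037), so the numbers pair nothing. The replicate block gave 71 rising and 28 falling members for camptothecin, 83 and 23 for hydroxyurea, 67 and 41 for MMS and 66 and 40 for phleomycin, and changed 4 of 208 results of named members. With library totals alone, 12 members fell with hydroxyurea in place of 22. Quantile normalization gave 57 rising and 50 falling with phleomycin.

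A 2-fold limit left, as rising and falling, 13 and 1 for camptothecin, 22 and 0 for hydroxyurea, 32 and 2 for MMS and 28 and 5 for phleomycin against untreated cells. Between agents it left 9 and 4 for hydroxyurea against camptothecin, 16 and 11 for MMS against camptothecin, 16 and 7 for phleomycin against camptothecin, 10 and 5 for MMS against hydroxyurea, 5 and 4 for phleomycin against hydroxyurea and 6 and 6 for phleomycin against MMS. Keeping only the 72 members that other features cover over less than 50 % of their span, all 72 of which differed among groups, gave 45 and 12, 54 and 11, 43 and 22, and 41 and 23 against untreated cells, and 41 and 20, 35 and 27, 29 falling for phleomycin against camptothecin, 26 and 39, 26 and 37, and 27 and 24 between agents. Fewer members were counted in both cases by construction. A limit of 40 CPM leaves 43 members, and 20 CPM in each library 62.

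Signs that turned were of small changes. With library totals alone the log2 fold changes for hydroxyurea became 0.16 for SPNCRNA.1095, 0.11 for SPNCRNA.1094, 0.0026 for SPNCRNA.608, 0.15 for SPNCRNA.1644, 0.04 for SPNCRNA.1223 and 0.0862 for SPNCRNA.1626. With quantile normalization they became 0.0295 for SPNCRNA.608, 0.0369 for SPNCRNA.1626 and -0.21 for SPNCRNA.659 with hydroxyurea, and -0.37 for SPNCRNA.1095, -0.10 for SPNCRNA.1094 and 0.0173 for SPNCRNA.1483 with phleomycin. The cause was not tested. Leaving out a library changed 36 of 2080 results of named members, 31 of them losing and 5 gaining a call, and turned no sign. The calls of SPNCRNA.1094, SPNCRNA.1096 and SPNCRNA.1459 for phleomycin, SPNCRNA.622 for camptothecin, SPNCRNA.894 and SPNCRNA.1698 for MMS, SPNCRNA.1279 for camptothecin, SPNCRNA.1223 and SPNCRNA.1626 for hydroxyurea and SPNCRNA.1624 and SPNCRNA.659 for MMS were among them. The 37 loci that hold a whole coding gene and the 3 rDNA members limit what a value is of, whatever the depth.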
